A study of Mus musculus with 2 samples.

Results

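The genes of oxidative phosphorylation, in both the mitochondrial and the nuclear genome, were described in single cells of the embryonic mouse pancreas. They were taken by the start of the symbol: mt-Nd, mt-Co, mt-Atp and mt-Cytb in the mitochondrial genome, and in the nuclear genome Nduf followed by the letters a, b, c, s or v and a digit, Sdha to Sdhd, Uqcr, Cox4 to Cox8 and Atp5. This gave 101 of the 27998 genes in the deposited tables, 13 encoded by mitochondrial DNA and 88 by the nucleus. The nuclear genes comprise 35 of complex I, 4 subunits of complex II with 4 assembly factors (Sdhaf1 to Sdhaf4) that the same letters take in, 8 of complex III, 20 of complex IV and 15 of complex V. The remaining 2, Atp5s and Atp5sl, share the prefix of the ATP synthase and were kept apart from its subunits. Cyc1 and Ndufab1, which are subunits, begin with other letters and were not among the 101.

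Oxidative phosphorylation makes ATP in the inner mitochondrial membrane. Complexes I and II pass electrons from NADH and succinate to ubiquinone, complex III hands them to cytochrome c, complex IV passes them to oxygen, and complexes I, III and IV pump the protons whose return drives the ATP synthase, complex V. Complex II is built from nuclear genes alone, whereas the other complexes join subunits from both genomes. Mitochondrial genes are transcribed as long polycistronic RNAs that are cut into shorter RNAs, and nuclear genes are transcribed one by one. In the pancreas, ATP made by mature beta cells closes the potassium channels that start insulin release, and acinar cells spend ATP on making digestive enzymes.

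The series concerns Dpy30∆P. Its pancreas libraries are 1 titled knockout and 1 titled control, each from a C57BL/6 embryo at embryonic day 13.5. Dpy30 is a core subunit of the Trithorax group complexes that methylate lysine 4 of histone H3. The labels give neither the driver of the deletion, nor the deleted part of the gene, nor the genotype of the control. Live dissociated cells were sorted and counted with a droplet method that tags the 3′ end of each RNA molecule with a unique molecular identifier (UMI), so that 1 UMI stands for 1 captured molecule irrespective of transcript length.

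There were 3044 barcodes with 28033433 UMIs under the knockout label and 3900 barcodes with 32702089 UMIs under the control label, and 22 barcodes occurred in both. Filters left 3016 knockout-labelled and 3873 control cells, which gates on the UMIs of marker genes put into classes: epithelium-like (466 knockout-labelled and 734 control cells), mesenchyme-like (827 and 1210 in the same libraries) and mesothelium-like (174 and 194). Markers outside the gates were highest in their own class in both libraries for 5 of 5 epithelial, 5 of 5 mesothelial and 2 of 5 mesenchymal genes. The mesenchyme gate takes collagen-rich cells, and 1383 of 1429 knockout-labelled and 1506 of 1575 control cells left in no class held 1 to 9 UMIs of its markers. Within the epithelium, subclasses are called by their gates. Chga-gated cells of the hormone lineage were 25 in the knockout-labelled and 81 in the control library, Neurog3-gated cells 57 and 124, cells gated by acinar enzymes, among them Cpa1, Cel and Ctrb1, 205 and 269, and cells gated by Spp1, Sox9, Anxa2 and Krt19 (Spp1-gated) 177 and 252. Of markers outside these gates, 5 of 5 were highest in the Chga-gated, 1 of 4 in the Neurog3-gated, 3 of 4 in the enzyme-gated and 0 of 4 in the Spp1-gated cells.

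Dpy30 was counted at 264 CPM (UMIs per 1000000) in the knockout-labelled and 221 CPM in the control epithelium, at 116 CPM (knockout-labelled) and 102 CPM (control) in the mesenchyme, and at 149 CPM (knockout-labelled) and 181 CPM (control) in the mesothelium. Its 3′ tags were thus lower under the knockout label in the mesothelium alone of these 3 classes, and since the place of the deletion relative to them is unknown here, they do not check it. With 1 library per group, a difference between libraries has no replicate check, no test was made, and the label and the library itself cannot be told apart. The 95% intervals given for levels (Poisson) and shares (Clopper-Pearson) cover counting error alone. How many of all genes had intervals that did not overlap between the libraries was not counted. Intervals that do not overlap therefore do not set a gene apart from other genes. Haemoglobin genes, which measure free RNA in cells other than erythroid ones, took 0.0354% of epithelial UMIs in the knockout-labelled and 0.0170% in the control library.

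Mitochondrial transcripts took a larger share of the UMIs in the knockout-labelled library in each of the 3 main classes. In the epithelium-like cells the share was 2.37% (interval 2.36 to 2.39) in the knockout-labelled and 2.05% (2.04 to 2.06) in the control library. It was 2.59% (knockout-labelled) and 2.16% (control) in the mesenchyme, and 2.96% (knockout-labelled) and 2.40% (control) in the mesothelium. The shares of the nuclear genes lay closer together, at 3.60% (knockout-labelled) and 3.56% (control) in epithelium, 2.97% and 2.93% in mesenchyme, and 3.12% and 3.21% in mesothelium of the same libraries. On the log2 scale, knockout-labelled over control, the summed mitochondrial genes differed by 0.21 in epithelium, 0.26 in mesenchyme and 0.30 in mesothelium, and the summed nuclear genes by 0.015, 0.020 and -0.037. The ratio of mitochondrial to nuclear UMIs was 0.659 (knockout-labelled) and 0.575 (control) in epithelium, 0.873 and 0.738 in mesenchyme, and 0.946 and 0.747 in mesothelium of the same libraries.

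Single cells showed the same shift. The median epithelium-like cell had 2.39% mitochondrial UMIs in the knockout-labelled library, with quartiles of 2.16 and 2.73, and 2.05% in the control library, with quartiles of 1.81 and 2.36. In the mesenchyme the lower quartile of the knockout-labelled cells, 2.34%, lay close to the upper quartile of the control cells, 2.39%. The difference was not seen at every depth. Among epithelium-like cells of 3000 to 6000 UMIs, the share was 3.66% over 18 knockout-labelled cells and 4.31% over 33 control cells, a log2 ratio of -0.24. It was 0.16 among cells of 6000 to 12000 UMIs and 0.27 among cells of 12000 to 24000 UMIs. The Spp1-gated cells gave -0.39 in the lowest of these ranges, over 11 knockout-labelled and 13 control cells, and the enzyme-gated cells gave -0.049 from 6000 to 12000 UMIs, over 12 knockout-labelled and 33 control cells, and 0.29 from 12000 to 24000 UMIs, over 153 knockout-labelled and 164 control cells. In the mesenchyme the log2 ratio was 0.32, 0.28 and 0.27 in the same 3 ranges. Knockout-labelled cells were the deeper ones, with a median of 14826 UMIs per epithelium-like cell in the knockout-labelled and 12941 in the control library, and 8382 and 6766.5 per mesenchyme-like cell in the same libraries. Mean CPM over cells, which weights each cell equally, gave an epithelial log2 ratio of 0.14, and thinning each cell to 3000 UMIs gave 0.15, with 0 knockout-labelled and 4 control cells left out as shallower. The part of depth and of free RNA in the difference was not tested.

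**Figure D1:**
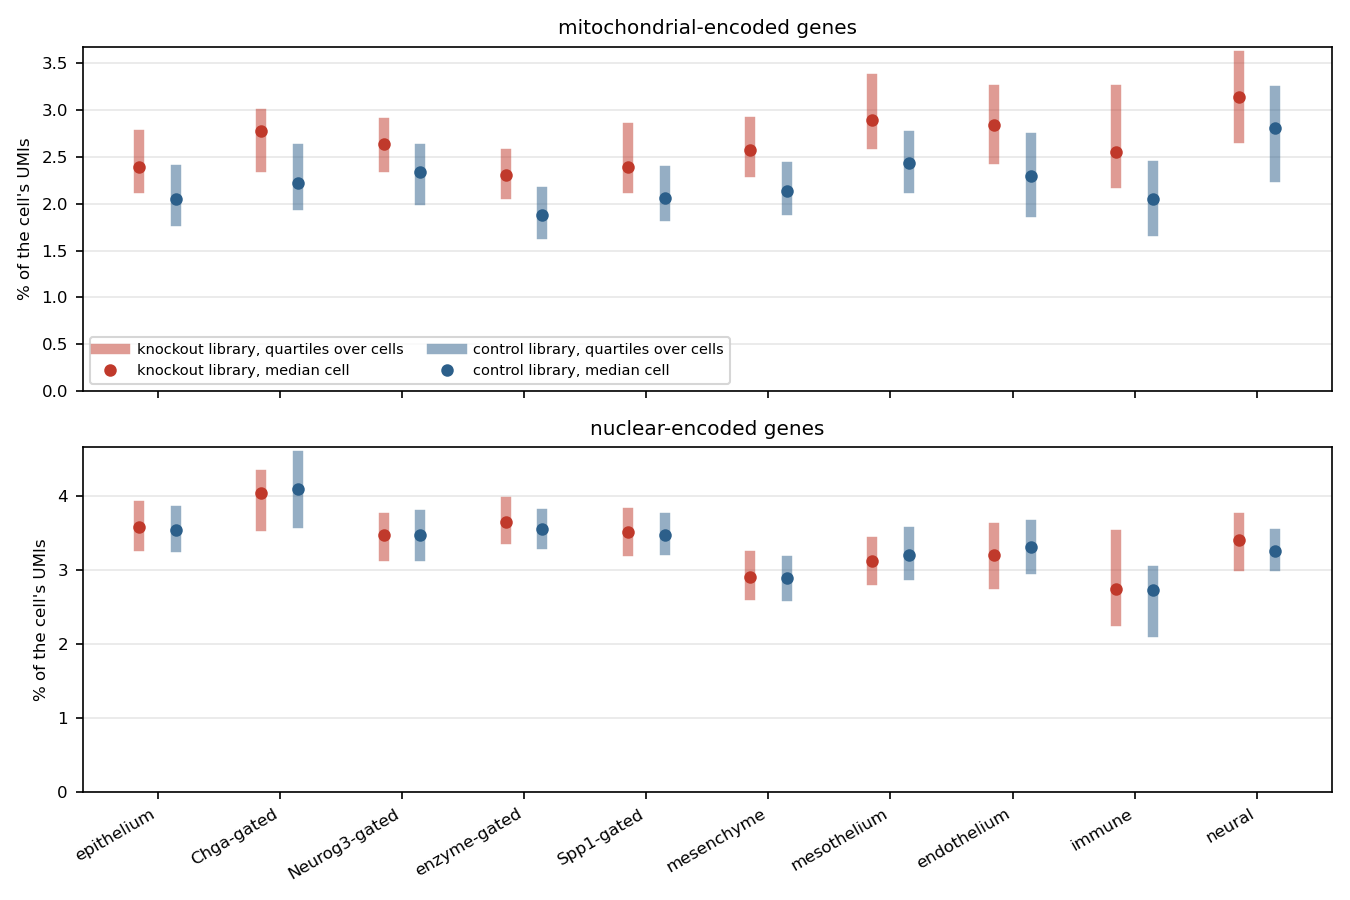
Share of each cell's UMIs in the 13 mitochondrial-encoded genes (top) and the 88 nuclear-encoded genes (bottom), in percent, by gated class. Points are the median cell and bars the quartiles over cells of the knockout-labelled library (red) and the control library (blue). In all 10 classes drawn the mitochondrial median lay higher under the knockout label, and the nuclear medians of the epithelium were 3.58% (knockout-labelled) and 3.54% (control).

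Over cells of every depth, the direction was the same in every gated class. The log2 ratio of the summed mitochondrial genes was 0.33 in the Chga-gated, 0.13 in the Neurog3-gated, 0.27 in the enzyme-gated and 0.20 in the Spp1-gated cells, and it was -0.049 in the enzyme-gated cells of 6000 to 12000 UMIs, where 6 of 12 measured genes were higher. The ratio was 0.28 in mitotic and 0.26 in other mesenchyme-like cells, 0.37 in endothelium-like, 0.37 in immune-like and 0.18 in neural-like cells. Gene by gene, all 13 were higher in the knockout-labelled library in epithelium, mesenchyme, mesothelium and the enzyme-gated cells, and 12 of 13 in the Spp1-gated cells, where mt-Nd6 had 5 knockout-labelled and 19 control UMIs. At least 0.32 higher on the log2 scale, the size used here to call a gene different, were 4 of the 13 in epithelium, where 4.75% of all 12184 measured genes were that much higher, 6 in mesenchyme, against 4.37% of all genes, and 6 in mesothelium, against 13.1%. The median of all genes was -0.022 in epithelium, -0.014 in mesenchyme and -0.022 in mesothelium. Ratios between libraries of single genes are log2 ratios of CPM + 5, which understates the change of low genes.

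Several mitochondrial genes share bases, which bears on reading their counts one by one. In GENCODE vM21 on GRCm38, mt-Atp8 (chrM:7766-7969) runs into mt-Atp6 (chrM:7927-8607) over 43 bases, mt-Nd4l (chrM:9877-10173) into mt-Nd4 (chrM:10167-11544) over 7 bases, and mt-Nd5 (chrM:11742-13565) meets mt-Nd6 (chrM:13552-14070, minus strand) end to end over 14 bases. The ends of the 3 first-named genes are shown 5′ to 3′ on the plus strand with the shared bases in capitals. How reads in these stretches were assigned is unknown here, as is whether the tags of overlapping genes come from separate RNAs. The counts of overlapping genes are thus uncertain.
mt-Atp8, chrM:7910-7969: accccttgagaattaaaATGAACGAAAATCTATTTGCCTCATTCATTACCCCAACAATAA
mt-Nd4l, chrM:10144-10173: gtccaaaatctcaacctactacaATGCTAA
mt-Nd5, chrM:13536-13565: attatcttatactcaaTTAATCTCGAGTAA

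Complex I has 7 mitochondrial subunits, mt-Nd1 to mt-Nd6 and mt-Nd4l, which form the core of its proton-pumping membrane arm. The highest ratios of the 13 genes were those of mt-Nd3 and mt-Nd2. mt-Nd3 had 409 CPM (interval 394 to 424) in the knockout-labelled and 291 CPM (281 to 302) in the control library in epithelium, 473 CPM (knockout-labelled) and 321 CPM (control) in mesenchyme, and 495 CPM (knockout-labelled) and 359 CPM (control) in mesothelium. Its log2 ratios were 0.48, 0.55 and 0.46 in these classes. mt-Nd2 had 669.9 CPM (knockout-labelled) and 489 CPM (control) in epithelium, 804 CPM (knockout-labelled) and 582 CPM (control) in mesenchyme, and 990.2 CPM (knockout-labelled) and 725 CPM (control) in mesothelium, ratios of 0.45, 0.46 and 0.45. The counting intervals of the libraries did not overlap for either gene in any of the 3 classes.

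mt-Nd1, the first protein gene of the polycistron, had a ratio of 0.084 in epithelium, at 2139.7 CPM (knockout-labelled) and 2018 CPM (control), against 0.27 in mesenchyme and 0.29 in mesothelium. mt-Nd4, mt-Nd4l and mt-Nd5 lay between, with 0.26, 0.22 and 0.35 in epithelium and 0.31, 0.31 and 0.39 in mesenchyme. mt-Nd6 is the only one of the 13 on the other strand, and it had the fewest UMIs. These count captured 3′ ends, and how well its RNA was captured is unknown here. It had 6.14 CPM (interval 4.46 to 8.25) in the knockout-labelled and 5.98 CPM (4.60 to 7.65) in the control library in epithelium, intervals that overlap, from 44 knockout-labelled and 63 control UMIs. In mesenchyme it had 15.4 CPM (interval 12.7 to 18.5) in the knockout-labelled and 10.9 CPM (8.86 to 13.3) in the control library, which overlap as well.

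Complex III has 1 mitochondrial subunit, cytochrome b (mt-Cytb), which holds a pair of its haem groups. It had 2728 CPM (knockout-labelled) and 2372 CPM (control) in epithelium, 2888 CPM (knockout-labelled) and 2468 CPM (control) in mesenchyme and 3097 CPM (knockout-labelled) and 2501 CPM (control) in mesothelium, ratios of 0.20, 0.23 and 0.31. In complex IV, mt-Co1 and mt-Co2 hold the haem and copper centres and mt-Co3 completes the core. mt-Co3 was the most abundant of the 13, at 5341 CPM (knockout-labelled) and 4841 CPM (control) in epithelium, 6671 CPM (knockout-labelled) and 5811 CPM (control) in mesenchyme and 7221 CPM (knockout-labelled) and 6152 CPM (control) in mesothelium, with ratios of 0.14, 0.20 and 0.23. mt-Co1 gave 0.21, 0.20 and 0.24, and mt-Co2 gave 0.25, 0.36 and 0.35 in the same classes. In complex V, mt-Atp6 forms the proton path beside the rotating ring and mt-Atp8 is a small neighbouring subunit. mt-Atp6 had 4529.6 CPM (knockout-labelled) and 3762 CPM (control) in epithelium, a ratio of 0.27, and mt-Atp8 had 64.0 CPM (knockout-labelled) and 46.8 CPM (control), a ratio of 0.41. Summed by complex, the mitochondrial ratio in epithelium was 0.22 for complex I, 0.20 for III, 0.19 for IV and 0.27 for V.

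**Figure D2:**
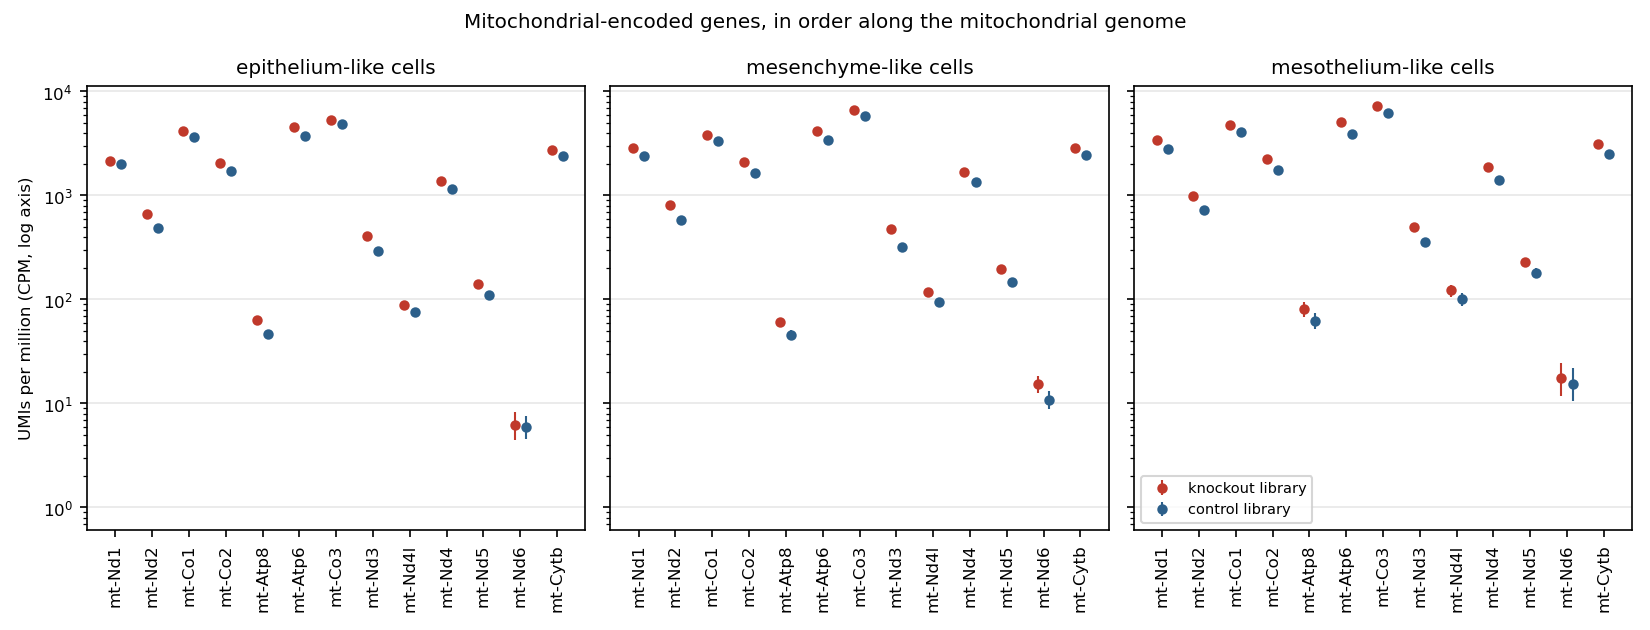
Level of each of the 13 mitochondrial-encoded genes, in UMIs per 1000000 on a log axis, in order along the mitochondrial genome, in epithelium-like, mesenchyme-like and mesothelium-like cells. Points are the knockout-labelled (red) and the control library (blue), with 95% Poisson intervals of the counts. Each gene lies higher in the knockout-labelled library, mt-Nd3 by most in epithelium (409 knockout-labelled and 291 control CPM), and the intervals of mt-Nd6 overlap.

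The nuclear genes of each complex were at nearly the same level in both libraries. Of the 88, 83 reached 20 UMIs over both libraries in the epithelium, 84 in the mesenchyme and 81 in the mesothelium, and their median log2 ratio was 0.016, 0.0090 and -0.032. In the epithelium 52 were higher and 31 lower in the knockout-labelled library, in the mesenchyme 48 and 36, and in the mesothelium 31 and 50. Past a log2 ratio of 0.32 in the epithelium were 2 genes higher and 1 lower, against 4.75% and 8.35% of all measured genes. In the mesenchyme 1 was higher and 0 lower, against 4.37% and 5.88%, and in the mesothelium 3 were higher and 4 lower, against 13.1% and 15.8%. These shares were below those of all genes in each class. All genes include those with as few as 20 UMIs over both libraries, where counting error is largest. They were not matched by level, so the lower shares do not show that the nuclear genes were unusually stable. Summed by complex in the epithelium, the log2 ratio was 0.029 for complex I, 0.030 for the 4 subunits of complex II, 0.060 for III, 0.0074 for IV and -0.0089 for V.

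**Figure D3:**
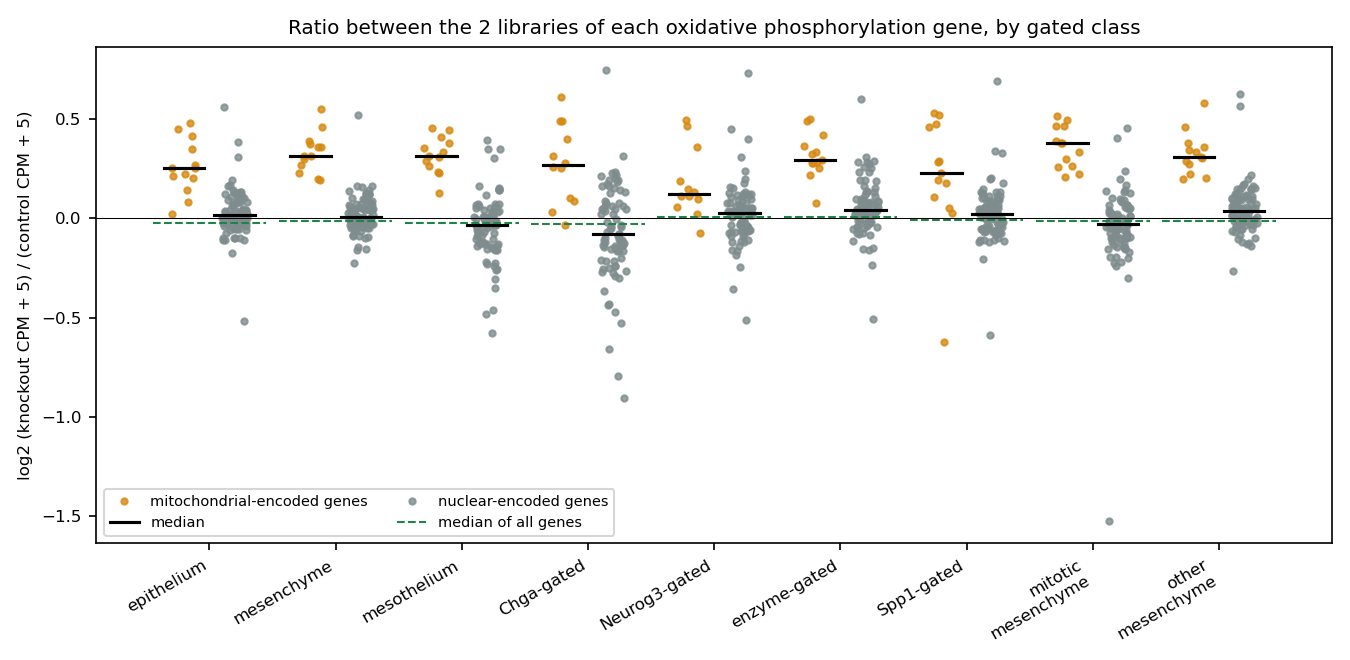
Log2 ratio of the knockout-labelled over the control library for each measured gene of oxidative phosphorylation, by gated class, with mitochondrial-encoded genes in orange and nuclear-encoded genes in grey. Black lines are medians and green dashed lines the median of all genes in the class. The medians were 0.25 (mitochondrial) and 0.016 (nuclear) in epithelium, and 0.31 (mitochondrial) and 0.0090 (nuclear) in mesenchyme.

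The most abundant nuclear genes illustrate this. In complex I, Ndufa2 and Ndufa7, small accessory subunits, had epithelial ratios of 0.034 and 0.13, with Ndufa7 at 559.6 CPM (knockout-labelled) and 509.7 CPM (control). In complex III, the hinge protein Uqcrh and the small subunit Uqcr10 had 0.14 and -0.032. In complex IV, Cox7c and Cox4i1, which stabilise the enzyme around its mitochondrial core, had -0.040 and 0.0047, with Cox7c the highest of all nuclear genes in epithelium, at 1542 CPM (knockout-labelled) and 1586 CPM (control). In complex V, the catalytic subunit Atp5b and the small subunit Atp5e had 0.0080 and 0.062. Atp5d and Atp5g3, the least abundant subunits of complex V, had 0.10 and 0.10.

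Sdhaf1, an assembly factor that helps iron-sulfur clusters into Sdhb, had the highest nuclear ratio in epithelium and in mesenchyme. It had 33.5 CPM (interval 29.4 to 38.0) in the knockout-labelled and 21.1 CPM (18.4 to 24.0) in the control library in epithelium, a ratio of 0.56. In mesenchyme it had 34.8 CPM (interval 30.7 to 39.3) in the knockout-labelled and 22.8 CPM (19.8 to 26.1) in the control library, a ratio of 0.52. The intervals of the libraries did not overlap in either class. The ratio was 0.60 in the enzyme-gated and 0.69 in the Spp1-gated cells, and 0.036 in the mesothelium, where the gene had 44 knockout-labelled and 45 control UMIs. The other genes of complex II did not share this: in epithelium Sdhaf2 had 0.0034, Sdhaf3 0.11 and Sdhaf4 -0.11, and the subunits Sdha, which oxidises succinate, and Sdhb, which holds the iron-sulfur clusters, had 0.071 and 0.041.

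Cox6b2, a paralogue of the complex IV subunit Cox6b1 best known from testis, had the lowest nuclear ratio in epithelium. It had 20.2 CPM (interval 17.1 to 23.8) in the knockout-labelled and 31.1 CPM (27.9 to 34.7) in the control library in epithelium, a ratio of -0.52 with intervals that do not overlap. The ratio was -0.50 in the enzyme-gated, -0.58 in the Spp1-gated and -0.35 in the Neurog3-gated cells, and -0.0086 in the mesenchyme, at 74.1 CPM (knockout-labelled) and 74.6 CPM (control). In the mesothelium it had 70.3 CPM (interval 58.7 to 83.5) in the knockout-labelled and 91.0 CPM (78.1 to 105) in the control library, intervals that overlap. Cox6b1 itself lay at 894 CPM (knockout-labelled) and 863 CPM (control) in epithelium, a ratio of 0.050.

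Next in the epithelium on the higher side stood Cox4i2 (0.38), Cox7a1 (0.31), Ndufa3 (0.19) and Uqcr11 (0.17). Cox4i2, a paralogue of Cox4i1 known to be induced by low oxygen, rested on 42 knockout-labelled and 35 control UMIs, and its intervals overlap. Cox7a1, a paralogue of Cox7a2 known from heart and skeletal muscle, had 58.8 CPM (interval 53.3 to 64.7) in the knockout-labelled and 46.5 CPM (42.5 to 50.8) in the control library in epithelium, which do not overlap. It had 85.1 CPM (knockout-labelled) and 68.9 CPM (control) in the enzyme-gated cells, and 28.7 and 29.6 CPM in the Spp1-gated cells. Enzyme-gated cells were 205 of 466 knockout-labelled and 269 of 734 control epithelium-like cells. The part of this mix in the epithelial ratio of Cox7a1 was not tested. On the lower side stood Atp5l (-0.17), Sdhaf4 (-0.11), Ndufb6 (-0.11) and Ndufs1 (-0.11). Atp5l, subunit g of the ATP synthase, had 769.6 CPM (knockout-labelled) and 869 CPM (control) in the whole epithelium, and within subclasses ratios of -0.17 in the Chga-gated, -0.14 in the Neurog3-gated, 0.017 in the enzyme-gated and -0.021 in the Spp1-gated cells. Chga-gated cells, in which Atp5l is highest, were 25 of 466 knockout-labelled and 81 of 734 control epithelium-like cells. The part of this mix in the epithelial ratio of Atp5l was not tested.

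In the mesenchyme Ndufa12, Ndufb4, Ndufa3 and Atp5g3 followed Sdhaf1 on the higher side, with ratios from 0.15 to 0.16. The lowest were Ndufv3 (-0.22), Cox4i2 (-0.16), Ndufs1 (-0.15), Ndufa9 (-0.14) and Ndufa11 (-0.10). Ndufv3, a small subunit of the NADH-oxidising arm, had 257 CPM (interval 246 to 269) in the knockout-labelled and 301 CPM (289.5 to 312) in the control library, which do not overlap. Ndufs1, the largest subunit of complex I and a carrier of iron-sulfur clusters, was on the lower side in all 3 main classes, with 45.7 CPM (knockout-labelled) and 49.5 CPM (control) in epithelium, 34.6 CPM (knockout-labelled) and 39.0 CPM (control) in mesenchyme and 28.3 CPM (knockout-labelled) and 40.8 CPM (control) in mesothelium. The counting intervals of Ndufs1 overlapped in each class. In the mesothelium the genes past 0.32 were Atp5sl (0.39), Sdhd (0.35) and Atp5s (0.35) on the higher side, and Sdhaf2 (-0.58), Sdhaf3 (-0.48), Ndufs1 (-0.46) and Cox6b2 (-0.35) on the lower. The most abundant of them was Sdhd, at 119 CPM (knockout-labelled) and 92.6 CPM (control).

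In the Chga-gated cells, with 25 knockout-labelled cells, 1 of 79 nuclear genes was past 0.32 on the higher side, Sdhaf1 at 0.75, and 8 on the lower, against 22.4% and 26.9% of all genes. The lowest there were Atp5sl (-0.90), Ndufa9 (-0.79) and Sdha (-0.65), and just inside the line on the higher side stood Atp5d (0.31). In the Neurog3-gated cells 3 of 82 were higher and 2 lower, against 18.4% and 17.8%. In the enzyme-gated cells 1 of 83 was higher and 1 lower, against 11.1% and 10.2%, with Ndufa1 (0.29) next to the highest and Ndufs7 (-0.23) next to the lowest. In the Spp1-gated cells 3 of 83 were higher and 1 lower, against 10.6% and 11.4%. None of these shares stood above that of all genes, which were not matched to them by level.

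Ndufa4l2, a paralogue of Ndufa4 known to be induced by low oxygen, lay on opposite sides of the control in the parts of the mesenchyme. Mitotic mesenchyme-like cells had 2.22 CPM (interval 0.721 to 5.18) in the knockout-labelled and 15.7 CPM (11.1 to 21.7) in the control library, from 5 knockout-labelled and 37 control UMIs. Other mesenchyme-like cells had 10.1 CPM (interval 7.53 to 13.2) in the knockout-labelled and 4.76 CPM (3.25 to 6.72) in the control library, from 52 knockout-labelled and 32 control UMIs. In both parts the intervals of the libraries do not overlap, while over the whole mesenchyme the libraries were alike, at 7.69 CPM (knockout-labelled) and 7.60 CPM (control). Neural-like cells held the highest level, 72.7 CPM (interval 51.9 to 99.0) in the knockout-labelled and 101 CPM (67.9 to 146) in the control library, which overlap. The epithelium held 2 UMIs in each library.

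On the X chromosome lie Ndufa1, Ndufb11 and Cox7b. Their ratios were 0.081, 0.019 and 0.0060 in epithelium and -0.031, 0.016 and -0.0081 in mesenchyme, within the range of the autosomal genes. Atp5g1, Atp5g2 and Atp5g3, which encode the same ring subunit c of the ATP synthase, had epithelial ratios of -0.059, -0.10 and 0.10. The common forms Cox6a1 and Cox8a of complex IV had 0.0027 and -0.019. Cox8c had 0 UMIs in either library. Cox7b2 had 1 knockout-labelled and 3 control UMIs over all cells, Cox6a2 had 4 and 2 in the same libraries, and Cox8b 2 and 4, so their levels were not measurable at this depth. All UMIs of Cox6a2, the muscle form of Cox6a1, fell in immune-like cells.

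Genes that assemble or serve the complexes were counted in the same way. The list for complex I assembly includes the subunit Ndufab1. That for complex V includes the inhibitor Atpif1 and is not limited to assembly genes. In the epithelium, 0 of 14 complex I assembly genes, 0 of 24 for complexes III and IV, 0 of 6 for complex V and 0 of 17 of the citric acid cycle were past a log2 ratio of 0.32 in either direction, where 4.75% of all genes were higher and 8.35% lower. Of 6 genes for electron carriers 1 was lower, Gpd2, the glycerol 3-phosphate dehydrogenase that feeds electrons to ubiquinone, at 36.7 CPM (knockout-labelled) and 52.7 CPM (control). Its ratio was -1.60 in the Chga-gated, -0.64 in the Neurog3-gated, -0.47 in the enzyme-gated and -0.056 in the Spp1-gated cells. Of 18 genes for mitochondrial DNA and RNA handling 3 were lower. Lrpprc, which stabilises mitochondrial mRNA, had 22.6 CPM (knockout-labelled) and 35.1 CPM (control). Within subclasses the ratios of Lrpprc were 0.11 in the Chga-gated, 0.68 in the Neurog3-gated, 0.012 in the enzyme-gated and -0.17 in the Spp1-gated cells. Its level was 323 CPM (knockout-labelled) and 298 CPM (control) in the Chga-gated cells, which are fewer in the knockout-labelled epithelium. In the Spp1-gated cells it was 11.5 CPM (knockout-labelled) and 13.6 CPM (control). The part of the cell mix in the epithelial ratio of Lrpprc was not tested. The DNA polymerase Polg had 4.33 CPM (knockout-labelled) and 7.69 CPM (control), and the mitochondrial RNA helicase Supv3l1 had 9.22 CPM (knockout-labelled) and 13.3 CPM (control).

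Of 9 regulators 2 were higher in the knockout-labelled epithelium and 0 lower, against 4.75% and 8.35% of all genes. Yy1, a transcription factor with sites at many respiratory genes, had 35.5 CPM (knockout-labelled) and 25.8 CPM (control) in epithelium and 26.9 CPM (knockout-labelled) and 17.0 CPM (control) in mesenchyme, ratios of 0.39 and 0.54. Myc, a growth regulator, had 41.3 CPM (knockout-labelled) and 30.3 CPM (control) in epithelium. Tfam, which packages and transcribes mitochondrial DNA, had a ratio of -0.018, Nrf1 -0.19 and Gabpa 0.10. In the mesenchyme 0 of 14 complex I assembly genes, 1 of 24 for complexes III and IV, 0 of 6 for complex V, 0 of 6 for electron carriers, 0 of 17 of the citric acid cycle, 1 of 18 for mitochondrial DNA and RNA and 1 of 9 regulators were past the line on the higher side, and 1, of mitochondrial DNA and RNA handling, on the lower, against 4.37% and 5.88% of all genes.

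Nuclear genes stood further apart between epithelium and mesenchyme than between the libraries within either of these classes. Class contrasts were tested with edgeR's quasi-likelihood test on UMI sums per class and library, with the library as a block and Benjamini-Hochberg adjustment over all 13116 genes. Each class has 2 sums, 1 from each library, and all classes of a library come from the same embryo. The p-values thus rest on how far class differences varied between these 2 embryos, with that variation partly pooled over genes. To the 2 residual degrees of freedom of a gene the fit added 11.1 drawn from all genes, and 22.6 in the fit of the epithelial subclasses. Epithelium over mesenchyme, 56 of 84 tested nuclear genes were higher and 7 lower at an adjusted p under 0.05, where 30.1% of all genes were higher and 27.7% lower. Their median log2 fold was 0.27, against 0.015 over all genes. The mitochondrial genes lay on the other side, with 1 of 13 higher, 8 lower and a median of -0.26. The UMI sums were not matched by depth, and epithelium-like cells were the deeper ones in both libraries. Among cells of 6000 to 12000 UMIs, the mitochondrial share was 2.63% in epithelium against 2.60% in mesenchyme (knockout-labelled) and 2.35% against 2.14% (control). In both libraries it was also higher in epithelium from 3000 to 6000 UMIs, and lower from 12000 to 24000 UMIs. The part of depth in the mitochondrial folds was not tested.

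**Figure D4:**
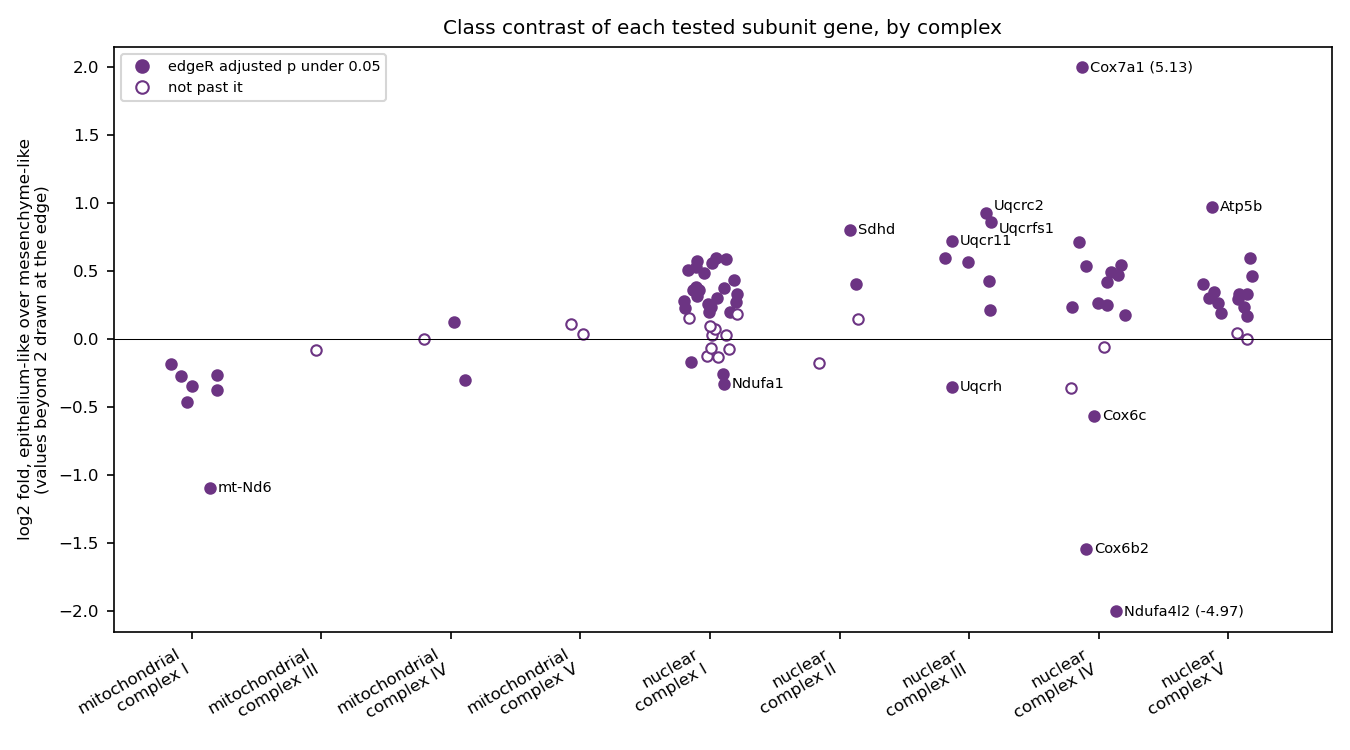
Log2 fold of epithelium-like over mesenchyme-like cells of every depth for each tested subunit gene, by genome and complex. Filled points passed an adjusted p of 0.05 in edgeR and open points did not, and values beyond 2 are drawn at the edge with their value. Nuclear genes lie mostly above 0, mitochondrial complex I genes lie below it, and Cox7a1 (5.13) and Ndufa4l2 (-4.97) lie at the ends. Of all tested nuclear genes 56 of 84 were higher and 7 lower by the test, among them the assembly factors, Atp5s and Atp5sl, which are not drawn.

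In complex III 7 of 8 nuclear genes were higher in epithelium and 1 lower, with a median log2 fold of 0.58. Uqcrc2, a core protein on the matrix side, had 245 against 133 CPM (knockout-labelled) and 242 against 121 CPM (control) in epithelium against mesenchyme, a fold of 0.93 (adjusted p = 1.4e-06). The Rieske iron-sulfur protein Uqcrfs1 had 270.5 against 143 CPM (knockout-labelled) and 264 against 149 CPM (control) (fold 0.86), and the small subunit Uqcr11 a fold of 0.72. Uqcrh was the exception, at 715 against 865 CPM (knockout-labelled) and 651 against 863 CPM (control) (fold -0.35, adjusted p = 3.6e-04). In complex V 13 of 15 were higher and 0 lower. Atp5b had 1267 against 663 CPM (knockout-labelled) and 1259.7 against 619.8 CPM (control) in epithelium against mesenchyme, a fold of 0.97 (adjusted p = 1.1e-07). The levels of both libraries thus differed between the classes and lay close to each other within a class.

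In complex I 22 of 35 nuclear genes were higher in epithelium and 3 lower, with a median of 0.26. The highest was Ndufs6 (0.60), a zinc-binding subunit, and the lower ones were Ndufa1 (-0.33), Ndufa5 (-0.25) and Ndufa3 (-0.16). In complex II Sdha and the membrane anchor Sdhd were higher, at 0.41 and 0.81, while Sdhb and Sdhc did not pass the test, at 0.15 and -0.17. Sdhd had 134 against 76.3 CPM (knockout-labelled) and 136 against 77.4 CPM (control) in epithelium against mesenchyme (adjusted p = 1.3e-05).

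Complex IV, with 11 of 16 tested genes higher and 3 lower, held both extremes, in its paralogue pairs. Cox7a1 had 421 knockout-labelled and 490 control UMIs in epithelium and 10 knockout-labelled and 14 control UMIs in mesenchyme, or 58.8 against 1.35 CPM (knockout-labelled) and 46.5 against 1.54 CPM (control), a log2 fold of 5.13 (adjusted p = 1.6e-10). Its counterpart Cox7a2 differed far less, at 687 against 572 CPM (knockout-labelled) and 712 against 586 CPM (control) (fold 0.26). In the reverse direction, Cox6b2 had 20.2 against 74.1 CPM (knockout-labelled) and 31.1 against 74.6 CPM (control) in epithelium against mesenchyme (fold -1.54, adjusted p = 3.1e-07), while Cox6b1 was higher in epithelium by 0.25. Ndufa4l2 had 2 knockout-labelled and 2 control UMIs in epithelium and 57 knockout-labelled and 69 control UMIs in mesenchyme (fitted fold -4.97), while Ndufa4 was higher in epithelium by 0.47. Cox6c, a small subunit of the inner membrane, was lower in epithelium, at 799 against 1152 CPM (knockout-labelled) and 815 against 1221 CPM (control) (fold -0.56). Cox4i2 did not pass the test, at 5.86 against 4.99 CPM (knockout-labelled) and 3.32 against 6.17 CPM (control) in epithelium against mesenchyme, and Cox4i1 was higher by 0.18. In each of these pairs the common form was the more abundant by UMIs in epithelium and mesenchyme.

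**Figure D5:**
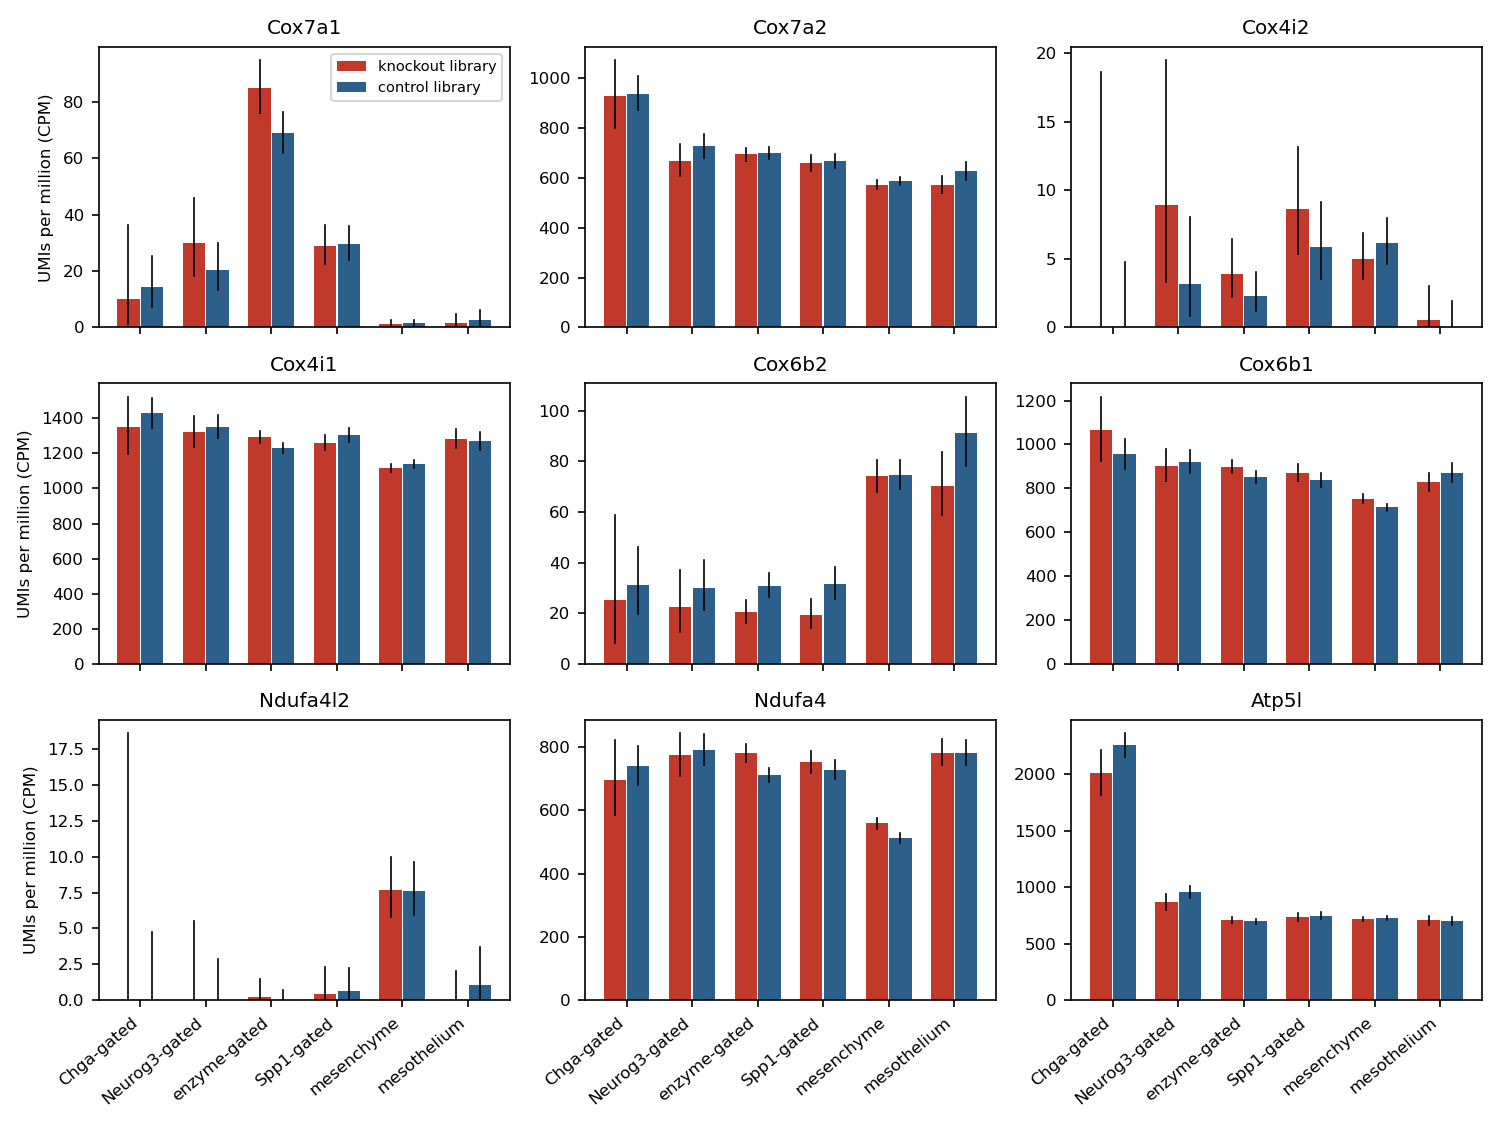
Level in UMIs per 1000000 of 4 paralogue pairs and of Atp5l in the epithelial subclasses, mesenchyme-like and mesothelium-like cells, in the knockout-labelled (red) and the control library (blue), with 95% Poisson intervals. Axes start at 0 and differ between panels. Cox7a1 is highest in enzyme-gated cells at 85.1 CPM (knockout-labelled) and 68.9 CPM (control), Cox6b2 in mesenchyme and mesothelium, and Atp5l in Chga-gated cells at 2011 CPM (knockout-labelled) and 2256 CPM (control).

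Among the mitochondrial genes, the 7 of complex I were all lower in epithelium than in mesenchyme, over cells of every depth. mt-Nd6 had the lowest fold, -1.09 (adjusted p = 3.3e-04), followed by mt-Nd5 at -0.46, mt-Nd4l at -0.37, mt-Nd1 at -0.34, mt-Nd4 at -0.27, mt-Nd2 at -0.26 and mt-Nd3 at -0.18. mt-Co3 was lower as well, at -0.30. mt-Co1 was higher, at 4206 against 3805 CPM (knockout-labelled) and 3627 against 3322 CPM (control), a fold of 0.13 (adjusted p = 0.039), a call that was not made by DESeq2, without the library block, with no filter on low counts, or with scaling that left out mitochondrial, haemoglobin and ribosomal protein genes. mt-Co2, mt-Cytb, mt-Atp6 and mt-Atp8 did not pass the test, with folds from -0.076 to 0.12. Without the library block 0 of the 13 genes were higher and 4 lower.

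Mesothelium over mesenchyme, 13 of 84 nuclear genes were higher and 9 lower, where 14.1% and 12.1% of all genes were, so that the nuclear counts were near the background. Of the mitochondrial genes 5 of 13 were higher (mt-Atp8, mt-Nd2, mt-Co1, mt-Atp6 and mt-Nd1, from 0.19 to 0.38) and 0 lower, and without the library block 0 were higher. Uqcr11, at 729 against 423 CPM (knockout-labelled) and 732 against 415 CPM (control) in mesothelium against mesenchyme, had the highest nuclear fold (0.76, adjusted p = 2.6e-06). Cox4i2 had 1 knockout-labelled and 0 control UMIs in the mesothelium. Epithelium over mesothelium, 49 nuclear genes were higher and 5 lower, where 22.4% and 20.5% of all genes were, and 0 mitochondrial genes were higher and 10 lower, or 4 lower without the library block. With DESeq2, mesothelium over mesenchyme gave 7 nuclear genes higher and 3 lower, and without the library block 8 and 4.

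Genes around the complexes varied by list in epithelium over mesenchyme, where 30.1% of all genes were higher and 27.7% lower. Of the citric acid cycle 12 of 17 were higher and 2 lower, among them the succinyl-CoA ligase subunits Suclg2 (1.08) and Suclg1 (0.81) and the isocitrate dehydrogenase subunit Idh3a (0.81) on the higher side and the X-linked pyruvate dehydrogenase subunit Pdha1 (-0.60) on the lower. Of the genes for mitochondrial DNA and RNA handling 8 of 18 were higher and 0 lower, including the elongation factor Tefm (1.06), the single-strand binding protein Ssbp1 (0.64) and Tfam (0.62). Of the electron carriers 4 of 6 were higher, with Gpd2 at 2.14 and cytochrome c, Cycs, at 0.60. Of the lists of assembly and related genes, 3 of 14 for complex I, 8 of 24 for complexes III and IV and 4 of 6 for complex V were higher. In the same order 0, 1 and 0 were lower, and the copper chaperone Cox17 had a fold of 1.29. Of 9 regulators Myc (1.38) and Yy1 (0.49) were higher and Ppargc1b (-1.04), a coactivator of mitochondrial genes, lower.

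Promoters were searched because 56 of 84 tested nuclear genes were higher in epithelium than in mesenchyme. Known regulators of respiratory genes also bind near their start sites. Of the 88 nuclear genes, 73 were matched to the RefSeq promoter table of GRCm38.p6, 250 bases before to 50 after each start, 70 by symbol and 3 by synonym. Motifs were searched on both strands. The NRF1 motif (GCGCA, any base, then GCGC) was in 19 of the 73 (26.0%), against 5.19% of all 27025 genes with a promoter. The motif CCGGAAG of ETS factors such as GABP was in 19 (26.0%), against 9.93%, and the YY1 motif AANATGGCG, with N any base, in 12 (16.4%), against 2.76%. At least 1 of the 3 was in 42 (57.5%), against 15.9%. The 27025 genes were not limited to expressed or protein-coding genes and were not matched for GC content. The excess is thus not shown to be particular to genes of oxidative phosphorylation. Genes with and without a motif are set side by side with no test between them. Of the tested genes with a motif, 29 of 42 were higher in epithelium and 2 lower, with a median log2 fold of 0.26, and of those with none 20 of 29 were higher and 3 lower, with a median of 0.34. Shown are the promoters of the genes with the highest fold in complex V (Atp5b), in complex II (Sdhd) and of all (Cox7a1), each 5′ to 3′ along its gene with motif matches in capitals. Atp5b holds 1 match, of YY1, Sdhd 2 matches, of NRF1 and then ETS, and Cox7a1 has no match in this window.
Atp5b, chr10:128083057-128083356, plus strand: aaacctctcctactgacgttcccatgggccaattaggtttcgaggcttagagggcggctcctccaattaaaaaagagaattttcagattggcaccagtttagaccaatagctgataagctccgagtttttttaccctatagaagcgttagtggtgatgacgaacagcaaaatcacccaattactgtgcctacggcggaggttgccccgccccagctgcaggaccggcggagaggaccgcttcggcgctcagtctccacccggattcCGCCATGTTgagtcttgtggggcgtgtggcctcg
Sdhd, chr9:50603800-50604099, minus strand: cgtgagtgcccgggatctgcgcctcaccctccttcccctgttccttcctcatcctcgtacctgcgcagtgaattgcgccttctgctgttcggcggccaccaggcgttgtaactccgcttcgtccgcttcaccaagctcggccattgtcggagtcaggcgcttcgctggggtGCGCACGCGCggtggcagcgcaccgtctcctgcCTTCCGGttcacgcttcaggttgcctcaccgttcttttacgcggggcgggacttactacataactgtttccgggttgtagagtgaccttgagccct
Cox7a1, chr7:30183921-30184220, plus strand: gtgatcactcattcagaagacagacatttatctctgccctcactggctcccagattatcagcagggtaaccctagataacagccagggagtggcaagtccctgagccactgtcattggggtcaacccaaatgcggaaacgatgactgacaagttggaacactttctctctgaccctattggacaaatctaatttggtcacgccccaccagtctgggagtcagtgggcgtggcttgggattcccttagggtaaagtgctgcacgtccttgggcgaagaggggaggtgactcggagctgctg

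Within the epithelium, single nuclear genes differed between the Chga-gated hormone cells and the Spp1-gated cells. Tested over the 4 subclasses and 10438 genes in the same way, 12 of 83 nuclear genes were higher in Chga-gated than in Spp1-gated cells and 13 lower. Among all genes 19.3% were higher and 21.3% lower, so the nuclear shares lay below those of all genes. Atp5l was the highest, at 2011 against 738 CPM (knockout-labelled) and 2256 against 749 CPM (control) in Chga-gated against Spp1-gated cells, a log2 fold of 1.33 (adjusted p = 1.6e-12). Neurog3-gated cells, at 871 CPM (knockout-labelled) and 960.0 CPM (control), were higher in Atp5l than Spp1-gated cells by 0.29 (adjusted p = 0.014), and enzyme-gated cells did not pass the test (0.15). Ndufa1 had 292 against 127 CPM (knockout-labelled) and 264 against 121 CPM (control) in Chga-gated against Spp1-gated cells (fold 0.98, adjusted p = 7.1e-07). Ndufv3 had 373 against 267 CPM (knockout-labelled) and 519.7 against 247 CPM (control) (fold 0.69). Cox7a2l, which takes part in joining complexes into supercomplexes, had 786 against 435 CPM (knockout-labelled) and 671 against 396 CPM (control) (fold 0.60).

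On the lower side in Chga-gated cells, Cox5a, a nuclear subunit of complex IV, had 237 against 416 CPM (knockout-labelled) and 286 against 434 CPM (control) against Spp1-gated cells (fold -0.84, adjusted p = 1.3e-06), and Cox7a1 had 10.1 against 28.7 CPM (knockout-labelled) and 14.2 against 29.6 CPM (control) (fold -1.26). Ndufs6 (-0.60) was lower too, as were Atp5o (-0.56), a stalk subunit of the ATP synthase, and Atp5g2 (-0.49). Cox4i2 had 0 UMIs in Chga-gated cells of either library, against 8.62 CPM (knockout-labelled) and 5.86 CPM (control) in Spp1-gated cells, and the exact interval of the 0 UMIs reaches 18.6 CPM (knockout-labelled) and 4.76 CPM (control). Each of Atp5l, Ndufa1, Ndufv3, Cox7a2l, Cox5a and Cox7a1 kept its direction and its call with DESeq2, with library totals in place of TMM scaling and without the library block. The counts of genes did not: with library totals 30 nuclear genes were higher and 7 lower, the median of all genes being 0.14, against -0.045 with TMM.

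Of the mitochondrial genes 1 was higher in Chga-gated than in Spp1-gated cells, mt-Co1 at 6104 against 4236 CPM (knockout-labelled) and 5094 against 3702 CPM (control) (fold 0.29), and 1 lower, mt-Nd1 (-0.34). Neurog3-gated over Spp1-gated cells gave 5 nuclear genes higher and 4 lower, where 11.9% and 9.4% of all genes were, and 2 mitochondrial genes higher, mt-Co1 (0.27) and mt-Co3 (0.18), of which 0 were called with DESeq2, with doubled gates or without the library block. The higher nuclear genes were Ndufs5 (0.35), Cox7a2l (0.32), Atp5l, Ndufa11 (0.28) and Uqcr10 (0.27). The lower ones were Atp5g1 (-0.55), Atp5c1 (-0.33), the central stalk of the ATP synthase, Ndufs7 (-0.32) and Ndufs6 (-0.31). Atp5g1 had 476 against 723 CPM (knockout-labelled) and 503 against 697 CPM (control) in Neurog3-gated against Spp1-gated cells (adjusted p = 5.9e-05). Without the library block 0 nuclear genes were higher and 1 lower.

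In the enzyme-gated cells, 38 of 83 nuclear genes were higher than in Spp1-gated cells and 1 lower with TMM scaling, where 10.3% and 7.95% of all genes were. This count depends on the scaling: with library totals 5 were higher and 4 lower. The nuclear median was 0.26 beside -0.011 for all genes with TMM, and 0.030 beside -0.24 for all genes with library totals. A change of scaling moves all genes of a contrast by about the same amount. The gap between these medians therefore could not change much and is no check on the count. Without the library block 6 were higher and 0 lower. Cox7a1 was the highest, at 85.1 against 28.7 CPM (knockout-labelled) and 68.9 against 29.6 CPM (control) in enzyme-gated against Spp1-gated cells (fold 1.60, adjusted p = 1.9e-09), and kept its call under these 3 settings. Uqcrc2, at 264 against 218 CPM (knockout-labelled) and 274 against 205 CPM (control) (fold 0.58), Atp5b (0.46) and Uqcr11 (0.45) followed. Sdhaf4, at 63.5 against 96.1 CPM (knockout-labelled) and 64.6 against 102 CPM (control) in enzyme-gated against Spp1-gated cells, was lower (fold -0.40, adjusted p = 0.012), and DESeq2 and the fit without the block did not call it. Of the mitochondrial genes 1 was higher, mt-Nd1 with a fold of 0.22, at 2150.4 against 2143 CPM (knockout-labelled) and 2036 against 2063 CPM (control), and it was called neither with library totals nor without the block. Enzyme-gated cells had a median of 17750 (knockout-labelled) and 18505 (control) UMIs, against 13327 and 12161 in Spp1-gated cells of the same libraries, and CPM is a share of these totals.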

How the data were processed

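The deposited matrices hold whole UMI counts per gene and barcode, made by the authors with droplet sequencing, and the submitters' processing notes name Cell Ranger, Seurat 2, Seurat 3, GRCm38 and mm10. The sources used here do not give the aligner settings or the annotation. The authors' table of differential expression was not used. Cells with at least 500 genes and 1000 UMIs were kept, and cells with over 50% haemoglobin UMIs were set aside as erythroid. Gates on summed raw UMIs were at least 3 for epithelium, mesothelium, endothelium, immune and neural markers and 10 for mesenchymal markers. Epithelium-like, endothelium-like, immune-like and neural-like cells needed under 30 mesenchymal UMIs. Epithelial subclasses were gated in order at 2 UMIs (Chga), 3 (Neurog3), 10 (enzymes) and 5 (Spp1, Sox9, Anxa2, Krt19), and mitotic mesenchyme at 10. No doublet caller was run. Cells that passed 2 gates, 3 in the knockout-labelled and 5 in the control library, were left out of every class.

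UMIs were summed per class and library. Libraries were compared without a test, on log2(CPM + 5), for genes with at least 20 UMIs over both libraries. With 1 library per group, no replicate error is available. Classes were contrasted with edgeR 4.0.16 (R 4.3.3, limma 3.58.1) by quasi-likelihood on TMM-scaled sums with the library as a block, because the classes of a library come from 1 embryo, and Benjamini-Hochberg adjustment over all genes (13116 for the 3 main classes with 2 residual degrees of freedom, 10438 for the epithelial subclasses with 3). DESeq2 1.42.0 was an alternative, and sums were made with Python 3.11.15, numpy 2.4.6 and pandas 2.3.3. On simulated epithelium over mesenchyme counts, 41.8% of 67 genes changed by 1.5-fold, 94.0% of 67 changed by 2-fold and 100% of 66 changed by 4-fold were called. So were 0.0396% of 12614 unchanged genes. Apart from the changed genes all classes had the same means, with no library effect and a dispersion set in advance. The changed genes were drawn from all well-counted genes and were far fewer than those called in the data. These rates thus do not carry over to the reported calls.

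Members, lists, gates and tests were chosen with earlier results of these data known. Genes are named by rule: all mitochondrial genes, the 2 with most and 2 with fewest UMIs per complex, paralogue sets, X-linked genes, the 5 highest and lowest library ratios in epithelium and mesenchyme and 3 in the other tested classes, the 6 highest and lowest of epithelium over mesenchyme and the 4 of each subclass contrast. A few others, such as the ends of a complex's range, related genes and Ndufa4l2 by mesenchymal part, were named after their values were seen.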

Additional observations from a re-analysis of the deposited data

Results flagged for a closer look

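Signal of the complexes was also present in barcodes outside the gated classes. Cells in no class, 1429 in the knockout-labelled and 1575 in the control library, had 2.69% (knockout-labelled) and 2.24% (control) of their UMIs in the mitochondrial-encoded genes, and 3.003% (knockout-labelled) and 3.011% (control) in the nuclear-encoded genes. Mitochondrial genes were thus higher in the knockout-labelled library here too, and nuclear genes lay alike. Erythroid cells, 9 in the knockout-labelled and 5 in the control library, had 0.489% (knockout-labelled) and 0.365% (control) in the mitochondrial-encoded genes, and 0.636% (knockout-labelled) and 0.612% (control) in the nuclear-encoded genes.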

How the results depend on the processing

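No paired analysis was possible for the comparison of libraries because each group has 1 replicate, which also leaves no replicate to leave out. The class contrasts pair classes by library, and their values without that block are given here.

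Depth turned some mitochondrial sums. In enzyme-gated cells of 6000 to 12000 UMIs the ratio was -0.049, against 0.27 over all depths, and in epithelium of 3000 to 6000 UMIs -0.24. The summed mitochondrial ratio in epithelium, 0.21, was 0.24 with at most 5% mitochondrial UMIs, TMM or median-of-ratios scaling, 0.23 with doubled gates, 0.25 on totals without mitochondrial, haemoglobin and ribosomal protein genes, 0.14 as a mean over cells, 0.15 thinned to 3000 UMIs and 0.16 in cells of 6000 to 12000 UMIs, a range chosen after seeing the data. In mesenchyme, 0.26, it was 0.32 with doubled gates, 0.27 with TMM or median-of-ratios scaling and 0.28 in that range. In mesothelium, 0.30, it was 0.33 with doubled gates or TMM, 0.34 on the reduced totals, 0.27 as a mean over cells, 0.28 thinned and 0.26 in that range. The nuclear sum in epithelium, 0.015, was 0.023 with doubled gates, 0.057 on the reduced totals, 0.044 with TMM or median-of-ratios, 0.0030 over cells, 0.0044 thinned and -0.021 in that range. In mesenchyme, 0.020, it was 0.035 with doubled gates, 0.030 with TMM and 0.032 with median-of-ratios. In mesothelium, -0.037, it was 0.0041 on the reduced totals and -0.013 with TMM.

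Nuclear genes past the line in epithelium, 2 higher, were 1 with a pseudocount of 20 CPM, at least 100 UMIs or that range, and the 1 lower was 2 thinned and in that range. In mesenchyme 1 higher became 3 with doubled gates and 2 in that range, and 0 lower became 2 with doubled gates. The mitochondrial percent in epithelium was 2.39 per median cell, 2.35 with doubled gates and 3.62 without haemoglobin and ribosomal genes in the knockout-labelled library, and 2.04 with at least 1500 genes, 2.01 and 3.05 in the control library. In mesenchyme the median cell, doubled gates and the totals without those genes gave 2.57, 2.65 and 3.86 (knockout-labelled) and 2.14, 2.13 and 3.23 (control), and in mesothelium 2.89, 2.89 and 4.403 (knockout-labelled) and 2.43, 2.30 and 3.50 (control).

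Without the library block, epithelium over mesenchyme gave 0 mitochondrial genes higher and 4 lower, mesothelium over mesenchyme 0 mitochondrial and 8 nuclear higher and 4 nuclear lower, epithelium over mesothelium 4 mitochondrial lower, Chga-gated over Spp1-gated 0 mitochondrial higher, Neurog3-gated over Spp1-gated 0 mitochondrial and 0 nuclear higher and 1 nuclear lower, and enzyme-gated over Spp1-gated 0 mitochondrial and 6 nuclear higher and 0 nuclear lower. With DESeq2, mitochondrial genes higher were 0 in epithelium over mesenchyme, 2 in mesothelium over mesenchyme and 0 in Neurog3-gated cells, and nuclear genes were 7 higher and 3 lower in mesothelium over mesenchyme, 2 higher in Neurog3-gated and 0 lower in enzyme-gated cells. With library totals, chosen after seeing the data, mitochondrial genes higher were 2 in epithelium over mesenchyme, 5 in Chga-gated and 0 in enzyme-gated cells, mitochondrial genes lower 0 in Chga-gated and 2 in enzyme-gated cells, and nuclear genes 5 lower in mesothelium over mesenchyme, 30 higher and 7 lower in Chga-gated and 5 higher and 4 lower in enzyme-gated cells. With doubled gates, mitochondrial genes higher were 2 in epithelium over mesenchyme and 0 in Neurog3-gated and enzyme-gated cells, and nuclear genes 2 lower in mesothelium, 8 lower in Chga-gated and 2 higher in Neurog3-gated cells. With no count filter, 0 mitochondrial genes were higher in epithelium over mesenchyme and 1 in Neurog3-gated cells, 4 lower in Chga-gated cells, and nuclear genes lower were 16 in mesothelium and 23 in Chga-gated cells. With scaling that left out mitochondrial, haemoglobin and ribosomal genes, 0 mitochondrial genes were higher in epithelium over mesenchyme. Of the 72 calls on epithelium over mesenchyme, 57 were shared with DESeq2, 57 with the fit without the block and 65 with doubled gates.

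Of 7505 values of single genes' library ratios under the alternatives, 382 had another sign than the reported value. In epithelium 52 of 83 nuclear genes were higher, 67 on the reduced totals, 62 with TMM and 34 of 82 from 6000 to 12000 UMIs. Of the ratios past 0.32, thinning gave -0.049 for mt-Atp8 in mesothelium and 0.033, 0.16 and 0.015 for Sdhaf4, Ndufb6 and Ndufv3 in Chga-gated cells, and the range of 6000 to 12000 UMIs gave -0.73 for mt-Nd5 in enzyme-gated cells. In epithelium over mesenchyme, mt-Co2, which did not pass the test, was -0.030 with the reduced scaling, -0.020 with no filter, -0.0048 without the block and -0.0010 with at most 10% mitochondrial UMIs, and mt-Atp8 was -0.018 with doubled gates. Ndufa3 in enzyme-gated cells was 0.014 with doubled gates. The causes were not tested. Chga-gated cells, with 198389 UMIs in the knockout-labelled library, limit single genes most.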
